A study of Mus musculus with 3 samples.

Results

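Among the genes of the mouse HOX clusters lie the hairpins of the miR-10 and miR-196 families. The 7 mature miRNAs described here are mmu-miR-10b-5p, mmu-miR-10b-3p, mmu-miR-10a-5p, mmu-miR-10a-3p, mmu-miR-196a-5p, mmu-miR-196a-2-3p and mmu-miR-196b-5p. They were taken by name from a table of 627 mature miRNAs, and 7 of 7 had a row in it. HOX genes encode transcription factors that set position along the body axis, and miR-10 and miR-196 are known to lower the mRNAs of some HOX genes. A miRNA hairpin is cut into a 5p and a 3p strand (its arms), of which one is usually kept in the silencing complex and the other mostly degraded.

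The ovaries came from newborn CD1 mice and were cultured for 72 h with 0, 10, or 100 μM DEHP, a plasticizer. All 3 groups were grown in the same serum-containing medium with the solvent DMSO, and the 0 μM group had DMSO alone. Each concentration gave 1 small RNA library from many pooled ovaries, so no value below has a replicate and no p-value could be given. With 1 row kept for each miRNA, the libraries held 5253367 counts at 0 μM, 5064602 at 10 μM and 5952274 at 100 μM. In pooled ovaries, fewer cells of a type and less RNA per cell cannot be told apart. The comparisons address whether DEHP changed the miRNA profile of the ovary while primordial follicles form.

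The 5 hairpins that make these miRNAs lie in all 4 HOX clusters (RefSeq positions on GRCm38.p6, the build that the submitters name mm10). Mir10b (chr2:74726070-74726137, plus strand) is in the Hoxd cluster, within an intron of the Hoxd4 and Hoxd3 transcripts of GENCODE M21. Mir10a (chr11:96317165-96317274, plus strand) is in the Hoxb cluster, 992 bases before Hoxb4 and inside the long RefSeq model of Hoxb3. No Hox transcript of GENCODE M21 overlaps Mir10a, so the annotations differ there. On the same chromosome, Mir196a-1 (chr11:96265164-96265265, plus strand) lies 6064 bases before Hoxb9, between Hoxb13 and Hoxb9. Mir196a-2 (chr15:102973350-102973434, plus strand) lies between Hoxc10 and Hoxc9 and in an intron of 1 Hoxc5 transcript. Mir196b (chr6:52230081-52230165, minus strand) lies between Hoxa9 and Hoxa10, in exons of 2 Hoxa9 transcripts, outside any coding or UTR part annotated in them. Because Mir196a-1 and Mir196a-2 give the same 5p strand, miR-196a-5p cannot be assigned to either hairpin.

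**Figure D1:**
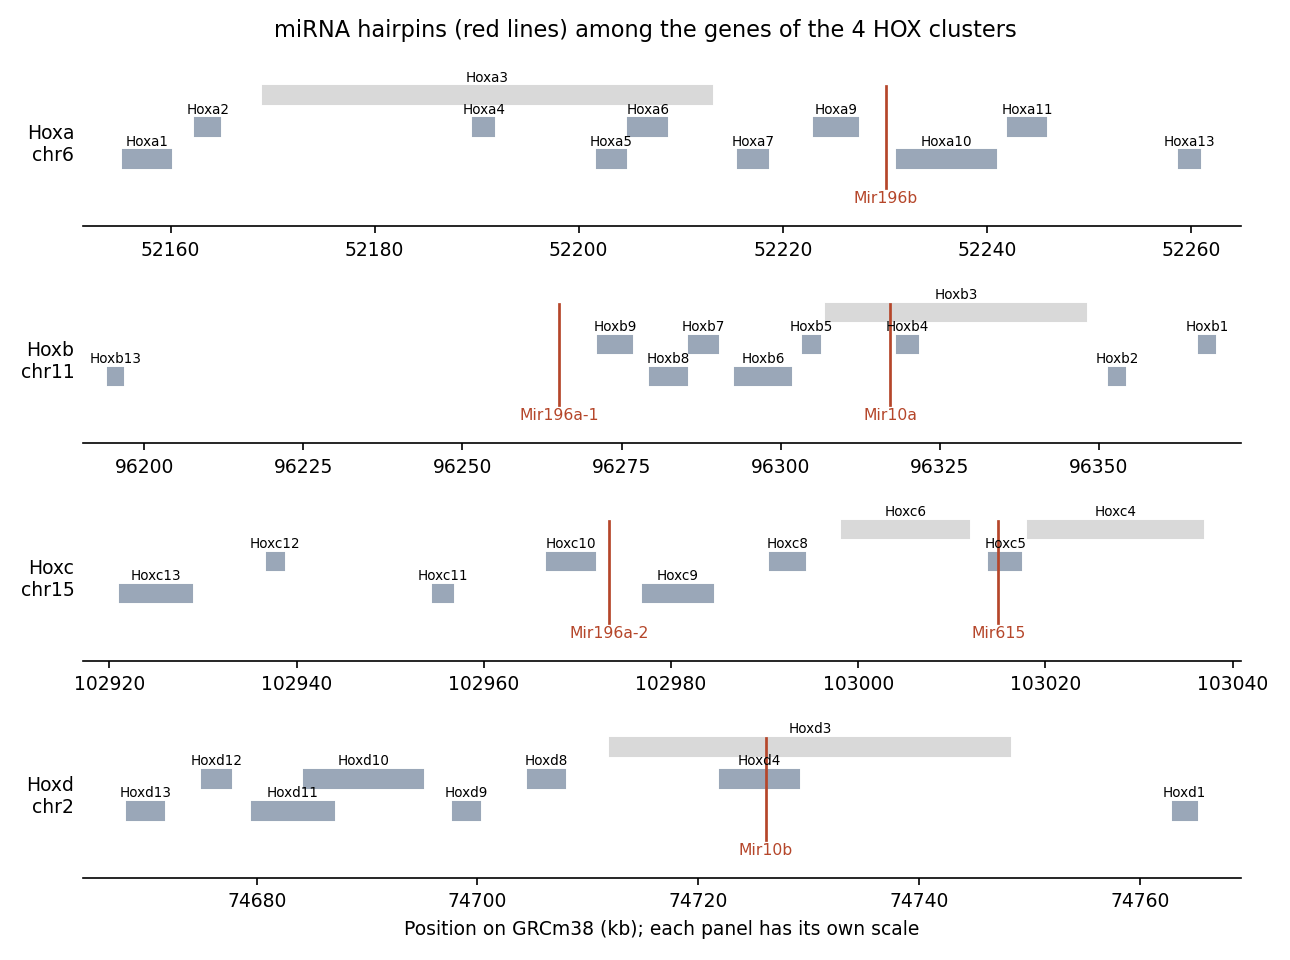
Positions of the miRNA hairpins (red lines) and the Hox genes (bars, RefSeq gene models, the longest in light grey) in the 4 HOX clusters, with the position on GRCm38 in kb on each x axis. Mir10a and Mir196a-1 share the Hoxb cluster, and the other hairpins of the 7 miRNAs lie in the Hoxa, Hoxc and Hoxd clusters.

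The mature sequences, from RefSeq, show which strands share a seed, the bases 2 to 8 that pair with target mRNAs. The seed is in capitals:
miR-10b-5p: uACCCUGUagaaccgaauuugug
miR-10a-5p: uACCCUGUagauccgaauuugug
miR-196a-5p: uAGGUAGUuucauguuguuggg
miR-196b-5p: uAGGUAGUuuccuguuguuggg
miR-10b-3p: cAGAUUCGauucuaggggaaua
miR-10a-3p: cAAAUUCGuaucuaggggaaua
miR-196a-2-3p: uCGGCAACaagaaacugccuga

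The 5p strands of miR-10b and miR-10a shared a seed and differed by 1 base (A12U, counted from the 5′ end with the base of miR-10b first). miR-196a-5p and miR-196b-5p also shared a seed and differed by 1 base (A12C, miR-196a first). Of the 529 miRNAs of the table with a RefSeq sequence, none apart from these pairs had either seed. How reads that fit both members of such a pair were assigned is not given in the sources used here, so a split between miR-10b-5p and miR-10a-5p, or between miR-196a-5p and miR-196b-5p, is uncertain. The 3p strands of miR-10b and miR-10a differed at 3 positions (G3A, A9U and U10A), and the first of these lies in the seed. All 7 strands have 22 or 23 bases, and their levels are compared below as counts without a length correction.

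In the library of 0 μM the 7 miRNAs spanned a wide range of levels. miR-10b-5p, a strand with high levels in many caudal tissues, had the highest count of the 627 miRNAs in each library. It had 398751 counts at 0 μM, 462690 at 10 μM and 1250029 at 100 μM, or 7.59%, 9.14% and 21.0% of the counts (Wilson 95% interval of the last 21.0% to 21.0%). Its share was higher with each concentration. At 100 μM miR-148a-3p was next to it, with 20.8% of the counts. This first place depends on how miRNAs with several rows were counted, because with their rows summed miR-10b-5p was in place 3 at 0 and 10 μM and in place 1 at 100 μM.

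miR-10a-5p, the strand with the same seed from the Hoxb cluster, had 53922, 63062 and 119210 counts at 0, 10, and 100 μM, or 1.03%, 1.25% and 2.003% of the counts. It was the miRNA with the 24th highest count at 0 μM and the 10th highest at 100 μM. The order of its 3 shares was that of miR-10b-5p. Between them the 5p strands of miR-10 held 8.62% of the counts at 0 μM, 10.4% at 10 μM and 23.0% at 100 μM.

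**Figure D2:**
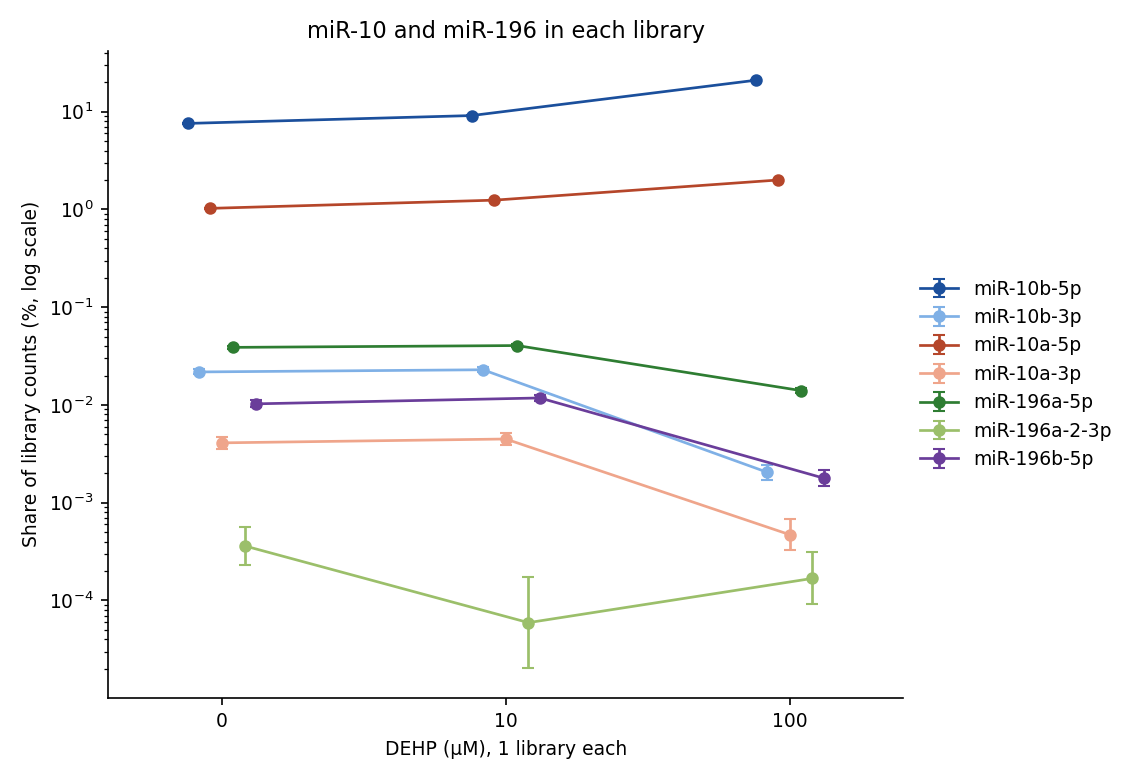
Share of the library's counts (%, log scale) for each of the 7 miRNAs at 0, 10, and 100 μM DEHP, with 1 library per concentration and Wilson 95% counting intervals as bars. At 100 μM both 5p strands of miR-10 have a larger share and both 3p strands a smaller one than at 0 μM.

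For log2 ratios the counts were divided by median-of-ratios size factors (1.38 at 0 μM, 1.35 at 10 μM and 0.546 at 100 μM), and 0.5 was added. After this, miR-10b-5p stood at 289342, 343255 and 2290126 normalized counts in the order of the concentrations. Its log2 ratio between 100 and 0 μM was 2.98 (95% counting interval 2.98 to 2.99), which is 7.91-fold. That of miR-10a-5p, with normalized counts of 39127, 46784 and 218400, was 2.48 (2.47 to 2.50), or 5.58-fold. The size of both depends on the scaling, and with total counts they were 1.47 and 0.96. The library of 100 μM also stood apart in its make-up. Its 10 most abundant miRNAs held 70.5% of the counts (45.4% at 0 μM and 45.6% at 10 μM), its median count was 97 (232 and 227), and 40 miRNAs were at or under the floor of 3 counts (0 and 8). At 10 μM both 5p strands of miR-10 were a little above 0 μM, with log2 ratios of 0.25 (0.24 to 0.25) and 0.26 (0.24 to 0.27).

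The 3p strands of the same hairpins were lower at 100 μM. miR-10b-3p had 1143 counts at 0 μM, 1160 at 10 μM and 122 at 100 μM, with normalized counts of 829, 861 and 224. miR-10a-3p had 215, 227 and 28 counts, with normalized counts of 156, 168 and 51.3. The 0 and 10 μM values of both strands had overlapping counting intervals, and the 100 μM values lay below them. Between 100 and 0 μM the log2 ratio was -1.89 (-2.17 to -1.62) for miR-10b-3p and -1.60 (-2.23 to -1.03) for miR-10a-3p. With total counts these ratios were -3.40 and -3.10. Thus each hairpin had 1 strand that was higher and 1 that was lower in the library of 100 μM.

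The 2 strands of a hairpin are cut from a common precursor, and their ratio within a library needs no scaling between libraries. The hairpins are printed with both mature strands in capitals, the 5p strand first:
Mir10b: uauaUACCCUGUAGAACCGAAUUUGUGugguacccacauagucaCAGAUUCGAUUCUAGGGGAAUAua
Mir10a: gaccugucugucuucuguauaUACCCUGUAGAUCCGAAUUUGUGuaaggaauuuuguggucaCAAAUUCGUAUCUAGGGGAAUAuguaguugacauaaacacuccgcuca

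For Mir10b the library of 0 μM held 349 counts of the 5p strand for each of the 3p strand (exact Clopper-Pearson 95% interval 329 to 370), that of 10 μM 399 (377 to 423) and that of 100 μM 10246 (8581 to 12338). For Mir10a the ratios were 251 (219 to 288), 278 (244 to 318) and 4257 (2946 to 6407). In both hairpins the ratio at 100 μM stood far above the other libraries, whose intervals overlapped for Mir10a and did not for Mir10b. The ratio between 100 and 0 μM changed by a log2 value of 4.88 for Mir10b (conditional exact 95% interval 4.61 to 5.16), which is 29.4-fold, and of 4.09 for Mir10a (3.51 to 4.71), which is 17.0-fold. The intervals of the 2 hairpins overlapped. The 3p counts set this precision, since at 100 μM 122 and 28 counts stood against 1250029 and 119210.

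Other hairpins also changed in arm ratio at 100 μM. A minimum mean of 10 normalized counts was met by both arms of 174 hairpins, paired by name. Of these, 14 shared the counts of a strand with another (as miR-199a and miR-199b do), so the 174 are not all separate measurements. Between 100 and 0 μM, 26 of these changed their 5p over 3p ratio by a log2 value above 2 (14.9%) and 34 by one below -2. The median change was -0.44 (quartiles -1.72 and 1.09). With 0.5 added to each count, Mir10b had the largest rise of the 5p over 3p ratio among the 174 (4.87) and Mir10a the 7th largest (4.06). This place holds for that direction of the ratio only. Changes toward the 3p strand were as large as -7.04, and by size in either direction Mir10b was in place 6 and Mir10a in place 17. By the gain of the arm in excess at 0 μM they were in places 4 and 11, after miR-708 (6.61), miR-140 (5.30) and miR-143 (4.97), which were named after their values were seen. By the rise of the 5p over 3p ratio they were in places 63 and 72 between 10 and 0 μM, where 1 hairpin in all was above 2, and in places 3 and 8 between 100 and 10 μM. The arm kept in excess at 0 μM gained on the other in 99 of the 174 hairpins at 100 μM. Without the 14 that share a strand, a setting chosen after seeing the data, 24 of 160 were above 2, 33 below -2 and the arm in excess gained in 89, and Mir10b and Mir10a kept their places at 100 μM.

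**Figure D3:**
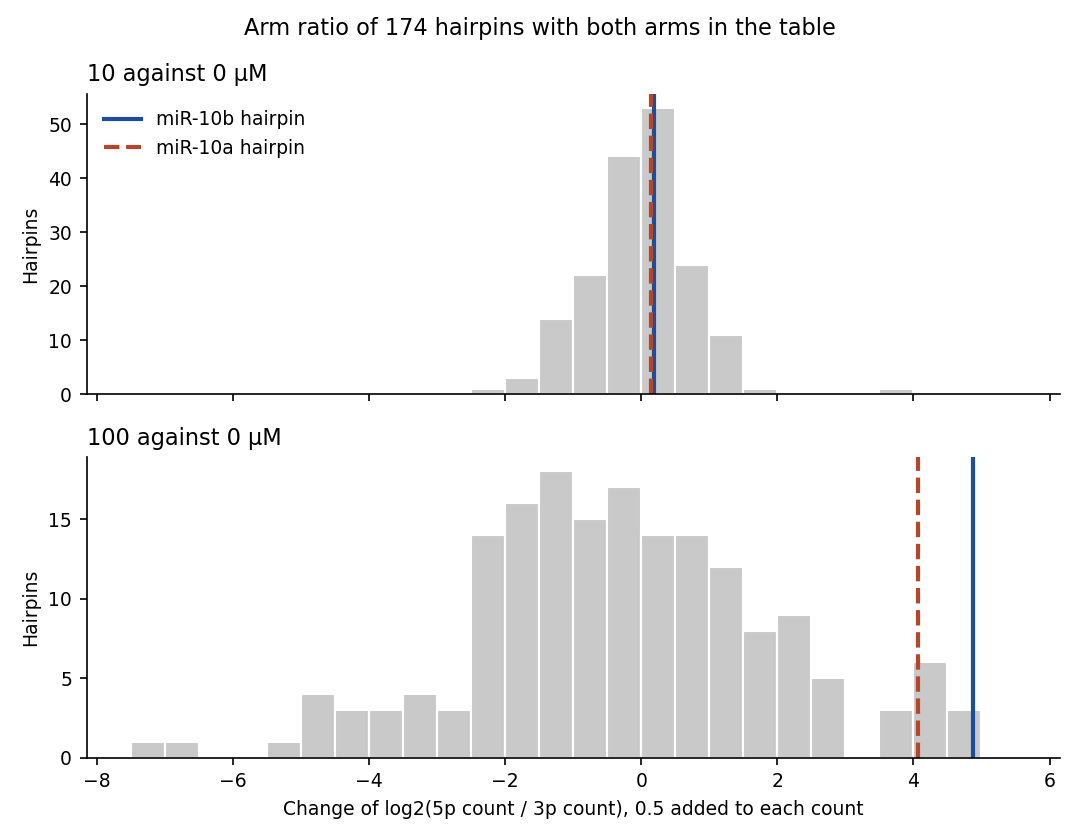
Number of hairpins (y axis) by the change of log2(5p count / 3p count) (x axis) between 10 and 0 μM DEHP (top) and 100 and 0 μM (bottom), for 174 hairpins, with miR-10b (solid line) and miR-10a (dashed line) marked. At 100 μM miR-10b is at the right end of the distribution, at 4.87, and at 10 μM both lie near its middle.

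The counts assigned to the 5p strands of miR-10b and miR-10a did not keep their proportion at 100 μM, with the uncertainty of the split given above. For each count of miR-10a-5p the library of 0 μM had 7.39 of miR-10b-5p (7.33 to 7.46), that of 10 μM 7.34 (7.28 to 7.40) and that of 100 μM 10.5 (10.4 to 10.5). Between 100 and 0 μM this is a log2 change of 0.50 (0.49 to 0.52). The ratio of the 3p strands was 5.32, 5.11 and 4.36, and its log2 change of -0.29 had an interval from -0.93 to 0.40. At this depth a change in the proportion of the 3p strands was not detectable.

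The miR-196 members were far less abundant. miR-196a-5p, which is known to direct the cleavage of Hoxb8 mRNA, had 2039, 2052 and 834 counts at 0, 10, and 100 μM, and a second row of this miRNA in the table had 1817, 1804 and 696. Its share was 0.0388%, 0.0405% and 0.0140% of the counts. Its normalized counts were 1480, 1522 and 1528, with overlapping counting intervals. The log2 ratio between 100 and 0 μM was 0.05 (-0.07 to 0.16), and its sign depends on the scaling, as described below.

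miR-196b-5p, from the Hoxa cluster, had 539 counts at 0 μM, 597 at 10 μM and 106 at 100 μM, with normalized counts of 391, 443 and 194. The library of 100 μM was the lowest, with a log2 ratio to 0 μM of -1.01 (-1.32 to -0.71), and the ratio between 10 and 0 μM was 0.18 (0.01 to 0.35). The ratio of miR-196a-5p to miR-196b-5p, in the order of the concentrations, was 3.78 (3.44 to 4.17), 3.44 (3.14 to 3.77) and 7.87 (6.42 to 9.72). With the rows of each miRNA summed it was 7.15, 6.46 and 14.4, so its level depends on the rows counted, while it was highest at 100 μM in both. The counts assigned to the strands that share this seed therefore changed in proportion at 100 μM, as those of miR-10 did. For miR-196 the log2 value was 1.06 (0.73 to 1.39), and the split of reads in both pairs is uncertain, as stated above.

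The 3p strand of Mir196a-2 was near the limit of detection. miR-196a-2-3p had 19 counts at 0 μM, 3 at 10 μM and 10 at 100 μM. Its log2 ratio between 10 and 0 μM was -2.39, with a counting interval from -5.03 to -0.87, and between 100 and 0 μM it was 0.40 (-0.86 to 1.59). The sign of the latter depends on the scaling, and with total counts it was -1.07. The count at 10 μM is at the floor of 3 counts, so the size of the difference between 10 and 0 μM is poorly known. The 3p strand of the other hairpin, miR-196a-1-3p, was more abundant, with 268, 266 and 206 counts. Over the 3 concentrations the ratio of miR-196a-5p to it was 7.61 (6.70 to 8.67), 7.71 (6.79 to 8.80) and 4.05 (3.47 to 4.74). At 100 μM miR-196a-5p lost against miR-196a-1-3p, by a log2 value of -0.91 (-1.20 to -0.62). Since miR-196a-5p comes from both Mir196a-1 and Mir196a-2, this is not an arm ratio like those of Mir10b and Mir10a. Against miR-196a-2-3p the change of miR-196a-5p was -0.36, with an interval from -1.55 to 0.91. These ratios use 1 of the 2 rows of miR-196a-5p, so their level depends on the rows counted.

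Between 100 and 0 μM, 2 of the 7 members had a log2 ratio above 2, miR-10b-5p and miR-10a-5p, while 10.4% of the 587 miRNAs above the minimum did. None of the 7 was below -2, against 9.37% of all. Between 10 and 0 μM none of the 7 was above 2 (0.00% of all), and 1, miR-196a-2-3p, was below -2 (0.681% of all). Between 100 and 10 μM, 3 of the 7 were above 2 (12.3% of all) and none was below -2 (8.69% of all). The 3 were miR-10b-5p (2.74), miR-10a-5p (2.22) and miR-196a-2-3p (2.79, interval 1.08 to 5.54), and the last of them rests on its 3 counts at 10 μM. With total counts this comparison had none of the 7 above 2 and 3 below -2, and 8 and 226 of all 593 miRNAs. The comparisons share the library of 100 μM or that of 0 μM and are not independent. With so few members these counts are a description. The median log2 ratio of the 7 between 100 and 0 μM was 0.05, from -1.89 to 2.98, and that of all 587 was -0.01 (quartiles -1.06 and 1.12).

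The scaling of the libraries decided some of these directions. Scaling to total counts moved the middle of all log2 ratios between 100 and 0 μM by -1.52. miR-10b-5p then had a log2 ratio of 1.47 and miR-10a-5p of 0.96, and 0.675% of all miRNAs were above 2. miR-10b-3p had -3.40, miR-10a-3p -3.10 and miR-196b-5p -2.52, so 3 of the 7 were below -2, where 35.9% of all were. miR-196a-5p was at -1.47 and miR-196a-2-3p at -1.07, both of the opposite sign to the size factors. In the 7 alternative settings of scaling, added value and rows, the 5p strands of miR-10 were higher and their 3p strands and miR-196b-5p lower at 100 than at 0 μM.

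**Figure D4:**
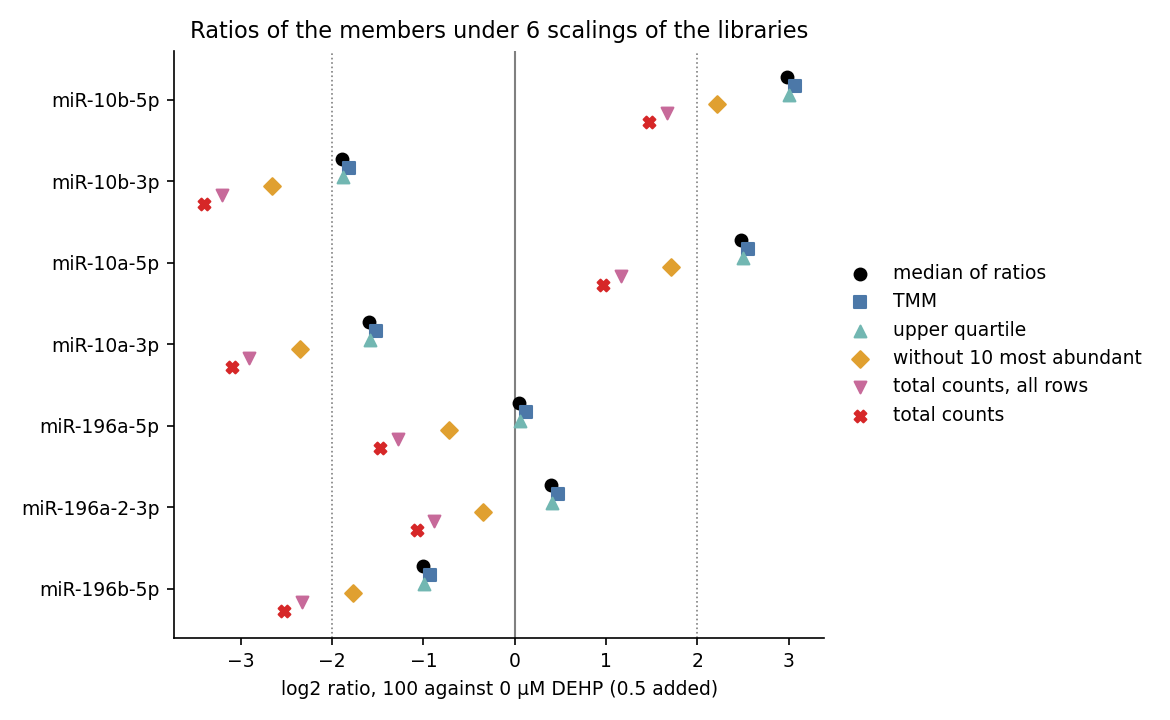
Log2 ratio between 100 and 0 μM DEHP (x axis) of each of the 7 miRNAs under 6 scalings of the libraries (markers), with dotted lines at -2 and 2. The 5p strands of miR-10 lie to the right of 0 and their 3p strands and miR-196b-5p to the left with each scaling shown, while miR-196a-5p and miR-196a-2-3p change side.

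Other miRNAs of the HOX clusters and the relatives of miR-10 by sequence were examined as a list of 10, of which 9 had a row and 8 were above the minimum. The 10th, miR-196b-3p, was not analysed here. miR-615-3p, from a hairpin in an intron of Hoxc5 (chr15:103014910-103015001, plus strand), had 1955, 1800 and 229 counts at 0, 10, and 100 μM. Its log2 ratio between 100 and 0 μM was -1.76 (-1.96 to -1.56), on the side of miR-196b-5p. miR-615-5p had 16, 17 and 5 counts. miR-196a-1-3p had a log2 ratio of 0.95 with the size factors and of -0.56 with total counts.

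The miR-99 and miR-100 strands have ACCC at bases 2 to 5 like miR-10 but lack the U that follows it there, so the bases after it lie 1 position earlier. Their seed differs from that of miR-10 and is shared among them. They are shown to compare with miR-10b-5p and miR-10a-5p, with the seed in capitals:
miR-99a-5p: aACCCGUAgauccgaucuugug
miR-99b-5p: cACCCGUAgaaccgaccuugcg
miR-100-5p: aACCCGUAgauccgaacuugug

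miR-99b-5p had 60237, 78214 and 118349 counts at 0, 10, and 100 μM and a log2 ratio between 100 and 0 μM of 2.31 (2.30 to 2.32). miR-100-5p had 47711, 42834 and 69726 counts and a log2 ratio of 1.88 (1.87 to 1.90). With total counts the ratios were 0.79 and 0.37, so both kept the direction of the 5p strands of miR-10. miR-99a-5p differed from them, with 167924, 121576 and 26289 counts and a log2 ratio of -1.34 (-1.36 to -1.32). The ratio of miR-10b-5p to miR-99a-5p was 2.37, 3.81 and 47.5 in the order of the concentrations. In the arm ratio, Mir99b changed by a log2 value of 0.88 (0.81 to 0.95) between 100 and 0 μM, with 3210 and 3428 counts of its 3p strand, and its interval lay below those of Mir10b and Mir10a. Mir99a changed by 1.41 (0.13 to 3.07), also below them. Mir100 changed by 4.35, between the values of Mir10b and Mir10a, but with 14 and 1 counts of its 3p strand its interval went from 1.64 to 9.75. Of the 8 relatives above the minimum, 1 was above 2 and 1, miR-99a-3p with 85, 29 and 5 counts, was below -2 between 100 and 0 μM, beside 10.4% and 9.37% of all miRNAs. With total counts none of the same 8 was above 2 and 3 were below -2 (miR-615-3p -3.27, miR-99a-5p -2.86 and miR-99a-3p -4.13), beside 0.675% and 35.9% of all.

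The miRNAs with a pattern most like that of miR-10b-5p over the 3 libraries were found among 373 others (mean of 100 or more normalized counts), by the distance of their log2 ratios at 10 and 100 μM to its own. The nearest 5 were miR-30a-3p (distance 0.02), miR-151-3p (0.05), miR-292a-5p (0.09), miR-182-5p (0.11) and miR-106b-3p (0.22). miR-30a-3p had 4356, 5127 and 13792 counts and miR-151-3p had 5184, 6231 and 16249. Their log2 ratios between 100 and 0 μM went from 2.88 to 3.00. miR-10a-5p was in place 15, and miR-10b-3p, from the hairpin of miR-10b-5p, in place 346.

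Markers of the tissue and of other cell types were examined in the same libraries. miR-202-5p and miR-202-3p, which mark the gonad, were present in each library and had 0.818%, 1.07% and 0.183% of the counts together at 0, 10, and 100 μM, with miR-202-5p the more abundant in each. With the size factors they went opposite ways between 100 and 0 μM (log2 ratio -0.74 for miR-202-5p and 0.78 for miR-202-3p). With total counts both were lower (-2.26 for miR-202-5p and -0.74 for miR-202-3p). Both endothelial markers, miR-126a-3p and miR-126a-5p, were below -2 between 100 and 0 μM, beside 9.37% of all miRNAs. With total counts they were at -3.64 and -4.64, where 35.9% of all were below -2. Their summed normalized counts were 46170, 52252 and 9855, most of them from miR-126a-3p, or 1.21%, 1.39% and 0.0904% of the counts. The markers of smooth muscle and stroma, miR-143-3p and miR-145a-5p, summed to 214447, 170354 and 793809 normalized counts, nearly all miR-143-3p. As a share of the counts this sum was 5.63%, 4.53% and 7.28%. The log2 ratio of miR-143-3p between 100 and 0 μM was 1.92 with the size factors and 0.40 with total counts. miR-145a-5p was lower at 100 μM (log2 ratio -1.20). With total counts it was at -2.72, where 35.9% of all were below -2. The sums of miR-202-5p and miR-202-3p were 31188, 40382 and 19964 normalized counts. In these 3 lists the sum at 100 μM had the same direction against 0 μM as a share of counts. The size of the change depended on the scaling in each of them.

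In the other lists the direction of the change or, as in the 3 above, its size depended on the scaling. The 6 miRNAs of germ and pluripotent cells summed to 2614, 1901 and 5507 normalized counts but to 0.0686%, 0.0506% and 0.0505% of the counts. They were led by miR-293-3p at 0 and 10 μM and by miR-294-3p at 100 μM. With the size factors 1 of the 6, miR-294-3p (2.70), was above 2 between 100 and 0 μM, beside 10.4% of all miRNAs. In the same comparison miR-290a-5p (-0.69) and miR-293-3p (-0.17) were below 0. With total counts miR-294-3p was at 1.18 and the others of this list were below 0. Among those, miR-290a-5p (-2.15, 7 counts at 100 μM) was below -2, beside 35.9% of all. The 3 muscle miRNAs summed to 284, 214 and 480 normalized counts and to 0.00744%, 0.00571% and 0.00440% of the counts, led by miR-1a-3p, with 2 of the 3 above the minimum. With the size factors miR-1a-3p (0.84) and miR-206-3p (-1.31, 4 counts at 100 μM) went opposite ways between 100 and 0 μM. With total counts both were lower (-0.67 and -2.72), miR-206-3p below -2 beside 35.9% of all. The 5 epithelial miRNAs summed to 6759, 7090 and 6172 normalized counts and to 0.177%, 0.189% and 0.0566% of the counts, with miR-200a-3p leading at 0 μM and miR-200b-3p at 10 and 100 μM. They went both ways with the size factors (log2 ratio -1.37 for miR-200a-3p and 1.13 for miR-200c-3p). With these, 1 of the 5 (miR-141-3p, 1 count at 100 μM) was below -2, beside 9.37% of all miRNAs. With total counts miR-141-3p (-6.85) and miR-200a-3p (-2.89) were below -2, beside 35.9% of all. The 3 miRNAs of red blood cells summed to 948, 1009 and 835 normalized counts and to 0.0249%, 0.0269% and 0.00766% of the counts, led by miR-486a-5p, with 2 of the 3 above the minimum and none beyond 2. The liver miRNA miR-122-5p had 22, 14 and 8 counts, and miR-124-3p of neurons was not analysed here. No marker with a row was at 0 counts in any library. Whether a change in the cell types of the ovary has a part in the values of miR-10 and miR-196 was not tested.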

How the data were processed

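Small RNA from cultured mouse ovaries was sequenced, with 1 library at each of 0, 10, and 100 μM DEHP. Linkers and poor sequence were trimmed by the authors, who used bowtie2 for the mouse genome and miRDeep2 for quantification. The deposited values are raw counts. The submitters' processing notes name mm10 and DESeq2. Versions and the handling of reads that fit several miRNAs are not given in the sources used here. Of 961 rows for 627 mature IDs, 79 IDs had several, and the row with the highest total was kept. Size factors came from DESeq2 1.42.0, and TMM and upper-quartile factors from edgeR 4.0.16 (R 4.3.3). Log2 ratios used 0.5 added normalized counts, a minimum mean of 10 (587 miRNAs) and a threshold of 2, the study's. Ratio intervals are exact at 95%. Intervals and the floor of 3 counts cover the counting error of reads only. With 1 library per concentration they leave out variation between cultures. Without molecular identifiers 1 molecule may give several reads, so the intervals may be too narrow for counts of molecules. The ratio script was tested on simulated data with as many miRNAs raised as lowered, which does not test the choice of scaling. The rule for naming miRNAs took the members, the related and marker lists, the 5 most abundant of each library and the 5 nearest patterns. Hairpins outside it were named after their values were seen. The comparison over all hairpins was chosen after seeing the data. Members and lists were chosen with earlier results of these data known. Sequences and positions are from RefSeq (GRCm38.p6) and GENCODE M21, and the deposited table holds no coordinates.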

Additional observations from a re-analysis of the deposited data

How the results depend on the processing

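Each concentration has 1 library, so a paired analysis could not be made and there was no replicate to leave out. The log2 ratio of miR-10b-5p between 100 and 0 μM was 3.06 with TMM, 3.00 with the upper quartile, 2.22 with library sizes without the 10 most abundant miRNAs, 1.66 with totals of all rows and 1.47 with total counts. Between 100 and 10 μM, in that order, it was 2.79, 2.69, 1.93, 1.45 and 1.20, and between 10 and 0 μM 0.28, 0.31, 0.29, 0.21 and 0.27. Its share of the counts was 5.77%, 6.66% and 18.2% at 0, 10, and 100 μM with all rows in the total, and the same with summed rows. The signs that changed between 100 and 0 μM were those of miR-196a-5p and miR-196a-2-3p, to -0.72 and -0.34 without the 10 most abundant miRNAs, -1.28 and -0.88 with totals of all rows, and -1.47 and -1.07 with total counts. Between 100 and 10 μM miR-196a-5p, at 0.01 with the size factors, was at -0.80, -1.28 and -1.53 in these settings, -0.0406 with the upper quartile and -0.0269 with summed rows. A new scaling shifts the ratios of a comparison by construction, by nearly the same amount except at low counts, where the 0.5 added weighs more. With summed rows the second row of miR-196a-5p also counts.

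Of all miRNAs, 217 were beyond 2 between 100 and 0 μM with total counts (4 higher, 213 lower) and 189 with totals of all rows (6 and 183), against 116 with the size factors (61 and 55). Without the 10 most abundant miRNAs 23 were higher and 130 lower. Between 100 and 10 μM the numbers were 234 (8 and 226) and 197 (13 and 184), and 24 and 119 without the 10 most abundant. A minimum of 100 was met by 374 miRNAs, while the 116 above were among 587. Of the 374, 75 were beyond 2 between 100 and 0 μM (50 and 25), 81 between 100 and 10 μM (57 and 24) and 1 between 10 and 0 μM. With no minimum, 9 of 627 were beyond 2 between 10 and 0 μM. At a threshold of 1 the numbers were 308 (157 and 151), 318 (173 and 145) and 39, each among 587. Of the 7 members, 5 were then beyond it between 100 and 0 μM (2 above and 3 below). Between 100 and 10 μM 6 were (3 above and 3 below). At a minimum of 100, which miR-196a-2-3p does not reach, 0 members were beyond 2 between 10 and 0 μM.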

Other observations

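Some hairpins outside the HOX clusters had a rise of the 5p over 3p ratio near that of Mir10b between 100 and 0 μM DEHP, on the log2 scale with 0.5 added to each count. The rise was 4.59 for miR-380, whose 5p strand had 717 and 1316 counts at 0 and 100 μM and whose 3p strand had 320 and 24. For miR-200a it was 4.58, with 131 and 480 counts of the 5p strand and 4934 and 754 of the 3p strand, so that here the less abundant strand gained. In let-7i, with 194533 and 219064 counts of the 5p strand and 221 and 12 of the 3p strand, it was 4.32. For miR-532 it was 4.19. In miR-221, where the 3p strand was the more abundant at 0 μM (2574 counts, and 361 at 100 μM), it was 4.05. These hairpins were named after their values were seen.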
